A study of Capitella teleta with 10 samples.

Results

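In *Capitella teleta*, 111 of 41221 transcript models were already present at a set level in the 64-cell embryo and rose at every stage measured up to the stage 7 larva. They were chosen by their own values. A transcript was taken when its mean normalized count at the 64-cell stage was at least 50 and when, at each of the 4 steps between consecutive stages, the lower library of the later stage lay above the higher library of the earlier one. Of the 41221 models, 17376 met the minimum at the 64-cell stage, and 111 of these (0.639%) rose at all 4 steps. A limit of 200 transcripts, ranked by the rise from the 64-cell stage to stage 7, was not reached. Because the rule used every stage and every library, the rise itself is described below and not tested.

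*C. teleta* is a marine segmented worm, an annelid, whose larva lives on yolk and does not feed before metamorphosis. Whole untreated embryos and larvae, with no genetic change named in the labels, were sampled at 5 stages with 2 libraries each: the 64-cell embryo, the gastrula, and stages 4tt, 5 and 7. The labels class stage 4tt as an embryo, whereas the methods of the study call it a larva. Libraries were made from mRNA and kept strand, and the deposited values are read counts per transcript model that the authors normalized across stages. They are not divided by transcript length, so an order of transcripts by level is an order by reads and not by molecules.

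An early embryo starts with messenger RNA that the mother laid down in the egg. This maternal RNA is degraded over cleavage and gastrulation while the embryo's own genome is transcribed, so a transcript can be high from the egg, appear only later, or be present early and accumulate further. The transcripts described here are of the last kind, since the minimum at the 64-cell stage leaves out those that start near 0. The 64-cell stage belongs to spiral cleavage, the gastrula forms the germ layers, and the larval stages build the ciliary bands, brain, gut and segmented trunk. In whole-embryo samples, more cells of a type and more RNA per cell cannot be told apart. The identifiers of these transcripts matched none of the 31977 entries of the gene table used, so the transcripts are named by identifier, and no function or sequence is given. For the same reason, markers of larval tissues were not analysed here.

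Library totals of normalized counts lay between 32883200 and 55846793, with the highest totals at the 64-cell stage and the lowest at stage 7. Replicates of the 111 transcripts differed by a median of 0.26 on the log2 scale at the 64-cell stage and by 0.12 to 0.19 at the later stages. The 17376 transcripts above the minimum differed by 0.24 at the 64-cell stage and by 0.22 to 0.34 at the later ones. The rule asks that libraries of neighbouring stages not overlap, which favours transcripts with close replicates. The 111 also differed in level, with a median of 2134 normalized counts at stage 7 against 538 for all transcripts above the minimum. Replicates were not compared at like level, so what the smaller differences come from was not tested. The samples of a stage were biological replicates according to the reporting form of the study, which does not name the brood of each sample.

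The 111 transcripts started low and ended high. At the 64-cell stage their mean normalized counts ran from 50.3 to 2509 with a median of 190, below the median of 542 for all transcripts above the minimum. The median went on to 505 at the gastrula, 850 in the 4tt libraries, 1314 by stage 5 and 2134 by stage 7, while that of all transcripts above the minimum stayed between 538 and 551. At stage 7 the means ran from 310.1 to 44671. In order of level among all 41221 models, the median of the 111 moved from percentile 70.0 through 77.4, 83.0 and 88.6 to 93.3. No member was among the 1000 highest at the 64-cell stage or the gastrula, 5 were so at 4tt, 9 at stage 5 and 19 at stage 7.

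**Figure D1:**
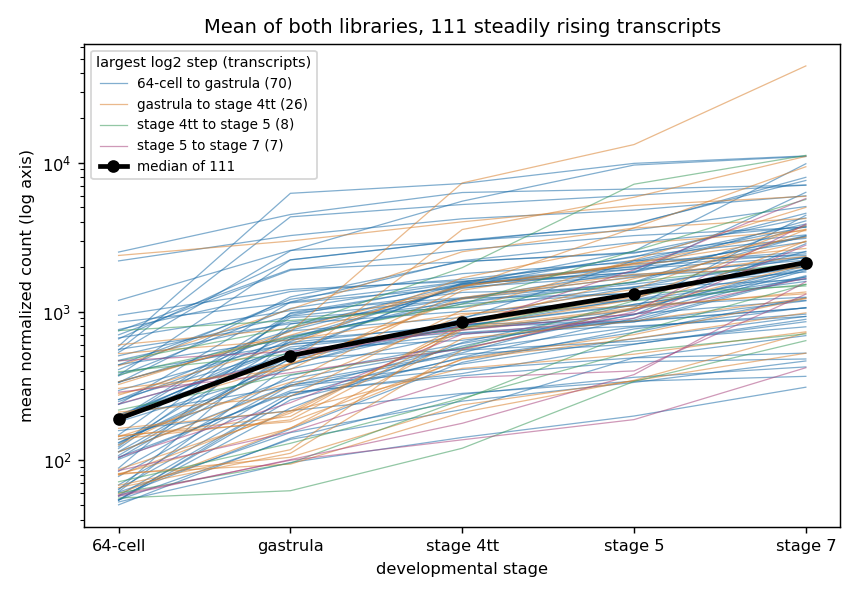
Mean normalized count of both libraries (log axis) against stage for the 111 transcripts, 1 thin line each, coloured by the step with the largest log2 increase, with the median in black. The median climbs from 190 to 2134, and the lines are steepest between the 64-cell stage and the gastrula for 70 of the 111.

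From the 64-cell stage to stage 7 the ratio of means ran from 2.32 to 138, with a median of 11.4 (3.51 on the log2 scale). It was at least 3 on the log2 scale for 74 transcripts, at least 4 for 38 and at least 5 for 12, and it lay below 2 for 17. The rise was not spread evenly over the steps. The median increase was 2.33-fold from the 64-cell stage to the gastrula, 1.64-fold from the gastrula to stage 4tt, 1.38-fold from stage 4tt to stage 5 and 1.49-fold from stage 5 to stage 7. The median share of a transcript's log2 rise was 38.5% at the first step, 23.0% at the second, 15.2% at the third and 19.9% at the last, each median taken by itself. The first step was the largest on the log2 scale in 70 transcripts, the second in 26, the third in 8 and the last in 7. No transcript rose at least 2-fold at every step, 11 did so at 3 steps, and 21 did so at none. The size of the steps fell from the first to the third in 52 transcripts and through all 4 in 14, while the last step exceeded the third in 69.

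**Figure D2:**
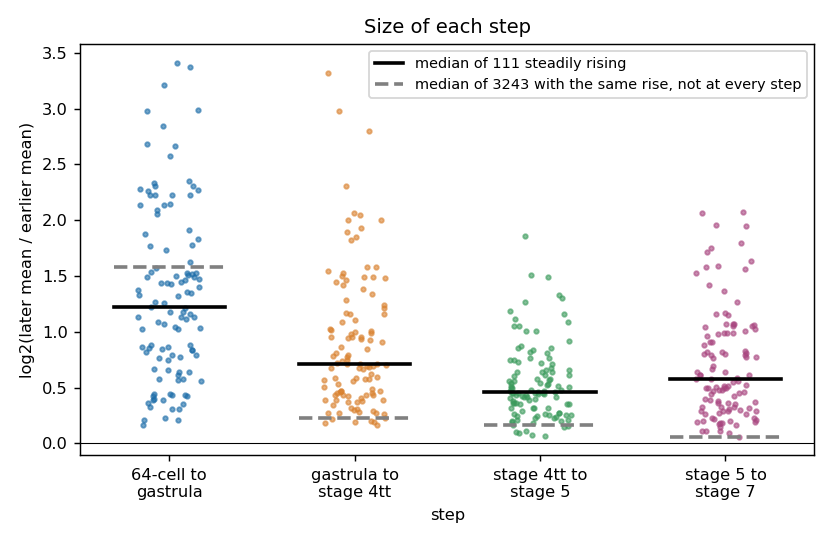
Increase at each step, as log2 of the later over the earlier stage mean, for the 111 transcripts (points), with their median (solid line). The dashed line is the median of 3243 transcripts which rose by at least the lowest ratio of the 111 but not at every step. The median of the 111 goes from 1.22 at the first step to 0.71, 0.46 and 0.57, while that of the other transcripts drops from 1.58 to 0.23, 0.17 and 0.06.

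Counted in normalized reads and not on the log2 scale, the last step moved to the front, and the order of the other steps stayed. The last step brought the largest gain in 66 transcripts, the first in 19, the second in 15 and the third in 11. The median share of the reads gained was 16.0% at the first step and 38.7% at the last, each median taken by itself. The step that was largest on the log2 scale depended partly on the libraries read. With replicate 1 libraries alone and replicate 2 libraries alone, 77 of the 111 transcripts had the same largest step.

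Some transcripts made most of their log2 rise by the gastrula and crept up afterwards. CTELG00000025304.1 was at 509 and 591 normalized counts in the 64-cell libraries, 4224 and 4428 at the gastrula, 5222 and 5249 in the 4tt libraries, 6168 and 5912 at stage 5, and 6236 and 7893 at stage 7. The first step thus held 80.8% of its log2 rise, and the lower stage 7 library lay only just above the higher stage 5 library. CTELG00000021379.1 was at 616 and 555 at the 64-cell stage, 6004 and 6449 at the gastrula, 6499 and 7988 in the 4tt libraries, 9273 and 10518 at stage 5, and 11077 and 11125 at stage 7. It put 80.4% of its rise in the first step, a 10.6-fold increase that was the largest first step of the 111.

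Other transcripts stayed low through the gastrula and rose mainly on the way to stage 4tt. CTELG00000018892.1 started from 50.4 and 85.5 normalized counts in 64-cell embryos, with 87.9 and 148 at the gastrula, 722 and 918 in the 4tt libraries, 1307 and 1198 at stage 5, and 2450 and 1914 at stage 7. The second step held 55.9% of its rise, and its 64-cell and gastrula libraries were separated by only 0.039 on the log2 scale. CTELG00000023268.1 went from 73.5 and 88.6 at the 64-cell stage to 161 and 168 at the gastrula, 612 and 705 in the 4tt libraries, 779 and 950 at stage 5, and 1214 and 1245 at stage 7, with 51.0% of its rise in the second step.

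In 8 transcripts the largest step was that from stage 4tt to stage 5, and in none of these did it hold more than 42.5% of the log2 rise. CTELG00000009339.1 was nearly level over the first step, at 51.5 and 60.2 and then 63.9 and 61.1 normalized counts. It then had 116 and 125 in the 4tt libraries, 351 and 328 at stage 5, and 531 and 743 at stage 7. The step to stage 5 held 42.5% of its rise and the first 4.6%. CTELG00000012987.1 was at 465 and 465 at the 64-cell stage, 878 and 679 at the gastrula, 2225 and 1719 in the 4tt libraries, 8184 and 6153 at stage 5, and 13113 and 9282 at stage 7. Its 3.64-fold step to stage 5 was the largest such step of the 111, and its replicate 1 was above its replicate 2 at each stage from the gastrula on.

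The latest risers gained most between stage 5 and stage 7. CTELG00000022204.1 was at 303 and 271 at the 64-cell stage, 418 and 358 at the gastrula, 462 and 662 in the 4tt libraries, 774 and 1214 at stage 5, and 3856 and 3881 at stage 7. Its steps grew at every stage, and the last held 52.3% of the rise. CTELG00000016459.1 rose from 82.1 and 88.6 to 165 and 145 at the gastrula and 389 and 331 in the 4tt libraries, stayed almost level at 402 and 396 at stage 5, and reached 1476 and 1141 at stage 7. The step to stage 5 held 3.8% of its rise and the last 43.5%.

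**Figure D3:**
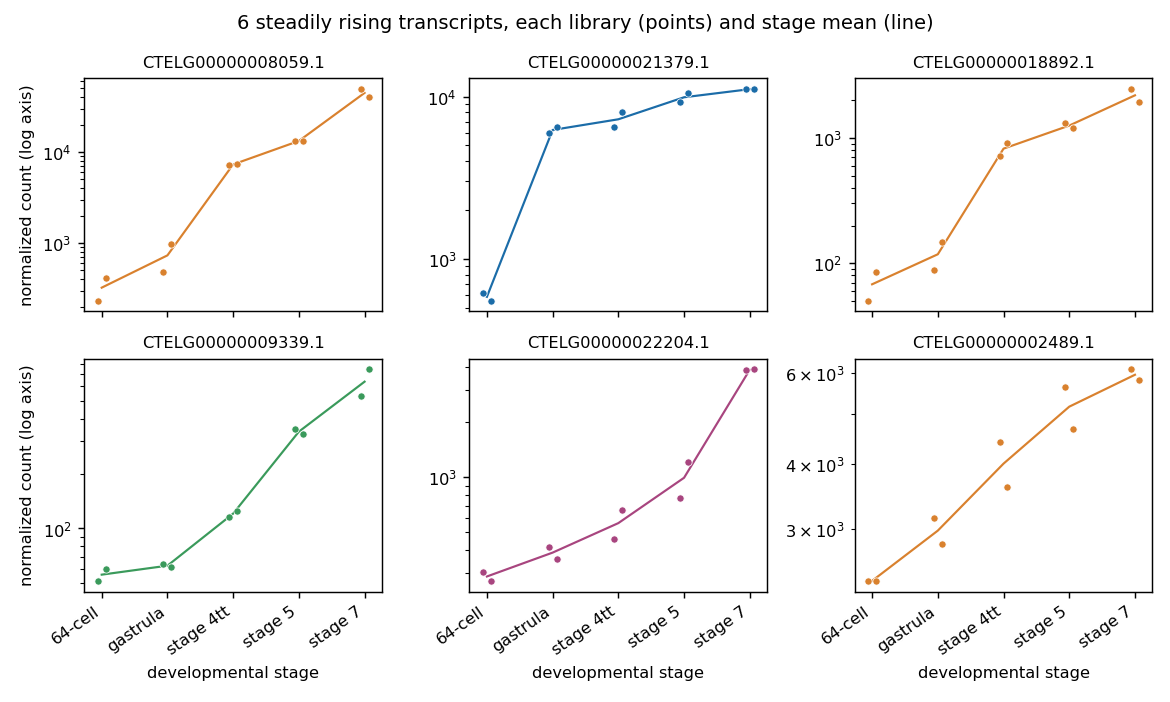
Normalized counts (log axis, scaled for each panel) of 6 transcripts against stage, with 1 point per library and a line through the stage means, coloured by the largest step as in the plot of all 111. CTELG00000021379.1 jumps at the gastrula, CTELG00000008059.1 and CTELG00000018892.1 at stage 4tt, CTELG00000009339.1 at stage 5 and CTELG00000022204.1 at stage 7, whereas CTELG00000002489.1 climbs by similar steps.

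The 3 transcripts whose log2 steps spanned the narrowest range rose by nearly equal steps, and a small total rise by itself keeps that range narrow. CTELG00000002489.1 was already at 2379 and 2382 normalized counts in the 64-cell libraries, then 3151 and 2800 at the gastrula, 4401 and 3611 in the 4tt libraries, 5637 and 4681 at stage 5, and 6086 and 5803 at stage 7. Its log2 steps were 0.32, 0.43, 0.36 and 0.20, and the whole rise was 2.50-fold. CTELG00000017136.1, with 1005 and 692 in the 64-cell libraries and 2037 and 1948 at stage 7, rose 2.35-fold by log2 steps between 0.20 and 0.43. CTELG00000015678.1, with 641 and 690 in the 64-cell libraries and 1945 and 2656 at stage 7, rose 3.46-fold by steps between 0.29 and 0.61. Their ranks by total rise among the 111 were 108, 110 and 98.

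The largest rise was that of CTELG00000008059.1, which was also the highest of the 111 at stage 7. It went from 233 and 414 normalized counts in the 64-cell libraries to 482 and 982 at the gastrula, 7192 and 7423 in the 4tt libraries, 13257 and 13214 at stage 5, and 49266 and 40077 at stage 7. The ratio of means was 138, and the second step alone was 9.98-fold, the largest second step of the 111. CTELG00000020883.1 followed with a ratio of 87.1, from 80.3 and 173 at the 64-cell stage through 319 and 581, 2650 and 4461, and 4838 and 6879 to 14999 and 7057 at stage 7. On the log2 scale its stage 7 libraries differed by more than those of any other stage but the 64-cell stage, and the lower one lay 0.037 on the log2 scale above the higher stage 5 library. CTELG00000021070.1 rose 81.9-fold, from 79.1 and 161 at the 64-cell stage through 727 and 819, 1203 and 1863, and 2060 and 3023 to 10730 and 8938. After CTELG00000008059.1, the highest means at stage 7 were those of CTELG00000012987.1 (11198 ± 2709, SD, n = 2) and CTELG00000021379.1 (11101 ± 33.8, SD, n = 2).

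Several transcripts met the rule by little. The narrowest gap between the libraries of neighbouring stages had a median of 0.12 on the log2 scale and ran from 0.0033 to 0.72. It was under 0.05 in 26 transcripts and under 0.1 in 48. The narrowest gap fell at the first step in 17, at the second in 19, at the third in 44 and at the last in 31. CTELG00000002081.1, the closest to failing, had 120 and 73.6 at the gastrula and 120 and 165 in the 4tt libraries, and CTELG00000017918.1 had 595 and 503 in the 4tt libraries and 665 and 597 at stage 5. Just outside, CTELG00000011226.1 had 311 and 532 at the gastrula and 532 and 708 in the 4tt libraries, and CTELG00000011942.1 had 231 and 195 at the gastrula and 233 and 230 in the 4tt libraries. At the minimum for the 64-cell stage, CTELG00000030823.1 (50.9 and 49.6) and CTELG00000002081.1 (51.1 and 54.0) were just inside, and CTELG00000001960.1 (35.9 and 58.1) and CTELG00000020489.1 (46.7 and 43.1) just outside.

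Which transcripts passed depended on how libraries were scaled. With libraries scaled again by median ratios, 86 transcripts passed and 73 of them were among the 111. With all libraries scaled to the same total, 193 passed and 67 of them were among the 111. The median log2 change of all transcripts from the 64-cell stage to stage 7 was 0.38 in the deposited values, 0.20 after the first scaling and 0.98 after the other, and each of the 111 changed by more than that median under all of them. The first step was the largest on the log2 scale in 48 of the 111 after the first scaling and in 74 after the other, against 70 in the deposited values. Leaving out a library makes the demand for no overlap easier to meet, and 169 transcripts passed without stage 4tt replicate 2 and 183 without stage 5 replicate 1. Without a 64-cell library the minimum rests on the other one. Of the 111, 106 then passed without replicate 1 and 105 without replicate 2.

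Summed over the 111 transcripts, the level increased at every stage. The summed normalized counts were 35411 and 34457 in the 64-cell libraries, 82709 and 89427 at the gastrula, 140319 and 152855 in the 4tt libraries, 207430 and 217821 at stage 5, and 384694 and 350698 at stage 7. The mean sum went from 34934 ± 675 (SD, n = 2) in the 64-cell embryos to 367696 ± 24039 (SD, n = 2) in stage 7 larvae, a ratio of 10.5. As a share of all normalized counts in a library the 111 went from 0.0642% ± 0.0012 (SD, n = 2) through 0.197% ± 0.018, 0.388% ± 0.059 and 0.571% ± 0.080 to 1.10% ± 0.040 (SD, n = 2 at each stage), a ratio of 17.1. The ratio of shares is the larger because the mean library total at stage 7 was 0.617 of that at the 64-cell stage. CTELG00000008059.1 held 12.1% of the sum at stage 7, and the 10 highest transcripts held 35.6%. At the 64-cell stage the 10 highest held 37.2%, and 2 transcripts were among the 10 highest at both stages.

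**Figure D4:**
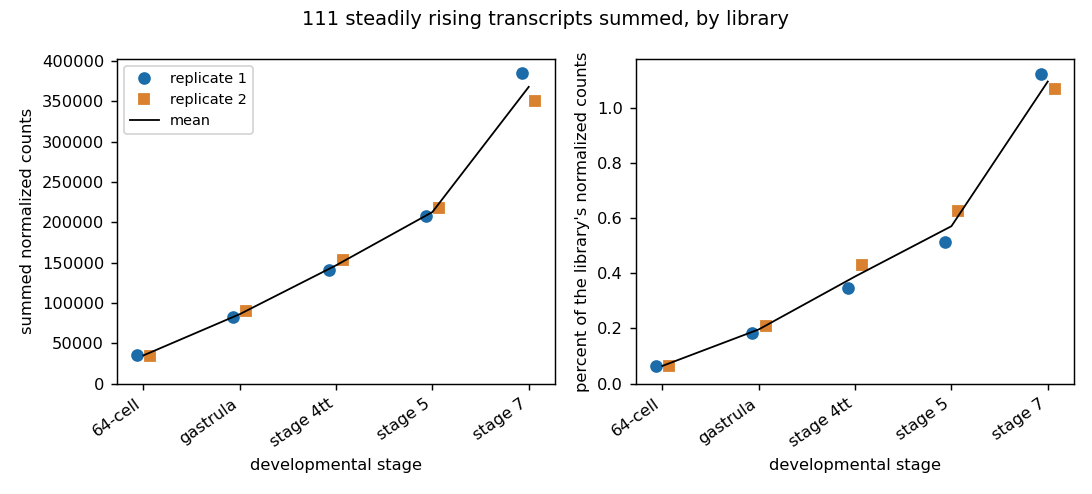
Summed normalized counts of the 111 transcripts (left) and their percent of all normalized counts in the library (right) against stage, with 1 point per library and a line through the stage means. The sum climbs from 34934 to 367696 and the percent from 0.0642 to 1.10, with the widest spread of the percent between libraries at stages 4tt and 5.

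Fewer steps passed a fold and significance threshold than the rule alone would show. In a linear model over all transcripts (limma, Benjamini-Hochberg adjustment, adjusted p under 0.05 and more than 1 on the log2(value + 1) scale), 69 of the 111 were called higher at the gastrula than at the 64-cell stage, beside 22.3% of all 35526 transcripts tested. At stage 4tt against the gastrula 33 were called higher, beside 10.7%, at stage 5 against stage 4tt 3, beside 0.327%, and at stage 7 against stage 5 24, beside 3.81%. From the 64-cell stage to stage 7 all 111 were called higher, beside 28.2%. The transcripts were picked on the same comparisons, so these counts describe the sizes of the steps and nothing is read from them. Of the 111, 26 were called at no single step, 47 at 1, 32 at 2, 6 at 3 and 0 at all 4. The same was not counted over all transcripts. Only 0.327% of them were called at the third step, so no more than that share could be called at all 4. At the last step, leaving out a 64-cell library did not lower the calls. They fell most, among the 111 and among all transcripts, without a stage 7 library or without stage 5 replicate 1. There were 2 members called (0.305% of all transcripts) without stage 7 replicate 1, 8 (0.712%) without stage 7 replicate 2 and 7 (0.819%) without stage 5 replicate 1. Members past the same fold at an unadjusted p under 0.05 in limma numbered 24, 30 and 23 in these fits, against 27 with all libraries. With only the 2 stages compared in the fit, 13 were called at stage 4tt against the gastrula, beside 3.83% of all transcripts, and at the third and the last step limma called 0 of the 111 and 0.0% of all transcripts. At an unadjusted p under 0.05 and the same fold, such fits gave 34 of the 111 at the second step, 13 at the third and 26 at the last, against 35, 14 and 27 with all stages in the fit. The share of all transcripts past the same fold at an unadjusted p was not counted in any fit, so nothing particular to the 111 is read from these numbers.

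The rule selects on every step, and the steps were not equally common among transcripts above the minimum. Libraries rose without overlap in 38.3% of the 17376 at the first step, in 27.3% at the second, in 19.3% at the third and in 27.5% at the last. A further 3243 transcripts above the minimum rose without overlap from the 64-cell stage to stage 7, but not at every step. Their ratio of means was at least 2.32, the lowest of the 111. No upper limit was set, so the 3243 were not matched to the 111 by the size of the rise. Among these the first step was the largest in 65.9%, the second in 23.0%, the third in 2.59% and the last in 8.45%, against 63.1%, 23.4%, 7.21% and 6.31% of the 111. With libraries scaled to the same total, the third step was the largest in 2 of the 111. The median of the 3243 at the later steps was 0.23, 0.17 and 0.06 on the log2 scale, against 0.71, 0.46 and 0.57. Of the 3243, 772 missed 1 step only, 1434 missed 2 and 1027 missed 3. The step most often missed was the third, in 2122 transcripts, followed by the last in 2019, the second in 1767 and the first in 853. The membership rule fixes part of these differences, and they are given as a description.

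Among transcripts that missed a single step, those that fell without overlap at that step were counted. Of all transcripts above the minimum, 541 rose at every step but the first, and in 462 of these the 2 gastrula libraries lay below both 64-cell libraries. A further 298 missed only the second step, with a fall without overlap in 201, and 196 missed only the last, with such a fall in 96. The third step alone was missed by 128, and 33 of these fell without overlap. How many of all 17376 fell without overlap at each step was not counted. Their median log2 step was -0.26, -0.18, -0.04 and -0.05 from the first step to the last. Whether the falls differ from those of all transcripts was not tested.

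The mirror image of the rule, a fall without overlap at every step with a stage 7 mean of at least 50, was met by 186 transcripts. Their median fall was 2.40 on the log2 scale, smaller than the median rise of 3.51. Like the rising transcripts they changed most at the first step, which was the largest in 116 of 186 (62.4%), followed by the second in 46 (24.7%), the last in 14 (7.53%) and the third in 10 (5.38%). With the minimum set at the 64-cell stage, as for the rising transcripts, 216 transcripts fell at every step. Whether falling or rising transcripts were more numerous depended on the scaling. With all libraries scaled to the same total, 55 met the mirror rule and 193 the rule for rising ones. After scaling by median ratios, 223 met the mirror rule and 86 the rule for rising ones.

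Most of the 111 were the only model of their gene. The other 23 (20.7%) belonged to genes with further transcript models, a share near the 24.1% of all transcripts above the minimum, and no gene had more than 1 member. These 23 genes held 33 other models, which the rule did not use, although pseudo-alignment can move reads between models of the same gene. Of the 32 that could be tested, 25 (78.1%) were called higher at stage 7 than at the 64-cell stage by limma, beside 28.2% of all transcripts. None was called lower, beside 20.4%, and 0 were lower at an unadjusted p under 0.05. The median change of the 32 was 3.68 on the log2(value + 1) scale, where that of all transcripts tested was 0.38. Of the 33, 1 climbed at every step, beside 353 of all 41221 models. A further 11 had a 64-cell mean of at least 50, where a model climbing at every step would itself have been a member. The highest mean was at stage 7 in 21, at stage 5 in 6, at stage 4tt in 1 and at the gastrula in 4. Another 1 was listed at 0 in every library.

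The models of a gene followed different courses in the genes with the highest other models. In CTELG00000024344, the member, CTELG00000024344.1, was at 209 and 46.4 normalized counts in the 64-cell libraries, 752 and 509 at the gastrula, 1533 and 1443 in the 4tt libraries, 2290 and 2413 at stage 5, and 3383 and 2820 at stage 7. The other model, CTELG00000024344.2, was at 1162 and 1230, then 6039 and 5008 at the gastrula, 5574 and 3366 in the 4tt libraries, 5601 and 3893 at stage 5, and 3700 and 3909 at stage 7. It was at its highest at the gastrula, and at stage 7 it remained above its 64-cell level (1.67 ± 0.25 SE on the log2(value + 1) scale, limma adjusted p = 0.00046). The member's share of the gene's reads went from 9.64% at the 64-cell stage to 44.9% at stage 7. In CTELG00000014109 the other model, CTELG00000014109.1, was highest at stage 4tt, with 1966 and 2768, and had 1448 and 974 at stage 7. The member, CTELG00000014109.2, had 1257 and 1163 in the 4tt libraries and 2763 and 1935 at stage 7.

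In other genes the member was present early and a further model came later. CTELG00000006130.2 was listed at 0 in both 64-cell libraries and had 99.0 and 118 at the gastrula, 832 and 988 in the 4tt libraries, 874 and 1156 at stage 5, and 5049 and 4732 at stage 7. The member, CTELG00000006130.1, had 139 and 225 at the 64-cell stage, 418 and 404 at the gastrula, 729 and 676 in the 4tt libraries, 958 and 742 at stage 5, and 1990 and 1435 at stage 7, so its share of the gene's reads went from 100% to 25.9%. CTELG00000008016, chosen after its values were seen, had 3 other models that came up at stage 7. CTELG00000008016.3 was listed at 0 in all 8 libraries before stage 7 and had 987 and 1243 there. The member, CTELG00000008016.1, rose from 396 and 272 at the 64-cell stage to 2348 and 2290, and its share of the gene's reads dropped from 92.4% at stage 5 to 42.3% at stage 7. Over the 23 genes the member held a median of 84.4% of the reads at the 64-cell stage and 74.2% at stage 7, and the share was higher at stage 7 in 13.

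**Figure D5:**
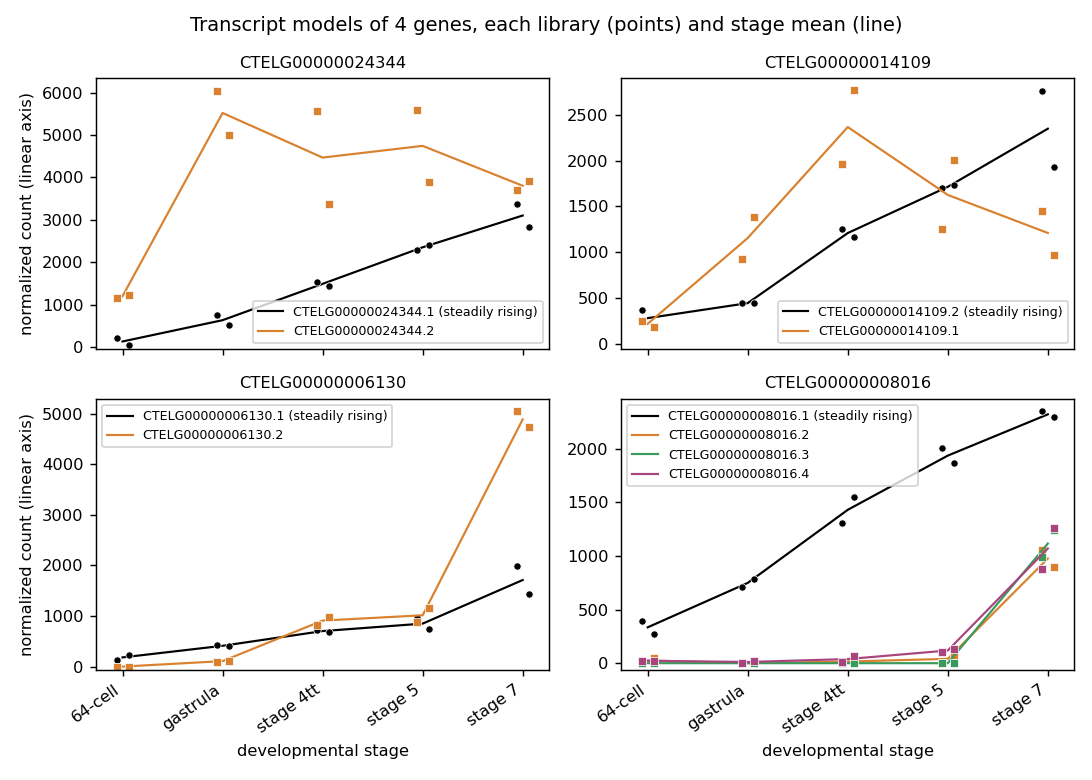
Normalized counts (linear axis) of the transcript models of 4 genes against stage, with the steadily rising model in black and the others in colour, 1 point per library and a line through the stage means. CTELG00000024344.2 and CTELG00000014109.1 peak at the gastrula and stage 4tt while the member keeps climbing, and CTELG00000006130.2 and the 3 other models of CTELG00000008016 come up late.

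The rule was also applied to sums over the models of a gene. Of the 23 genes with other models, 18 met the rule with their summed values, and all 23 had a higher sum at stage 7, by 1.32 to 5.49 on the log2 scale. Over all genes, 124 sums met the rule, 18 of them in genes with no single model that did.

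Members with consecutive gene numbers were few. There were 3 such pairs, 6 of the 111 transcripts (5.41%), and 6 of the 186 steadily falling ones (3.23%) had such a neighbour in their own list. The length of a list bears on this share, so these values cannot be compared. No share over all transcripts above the minimum was counted. CTELG00000022215.1 went from 564 and 499 at the 64-cell stage to 11201 and 10809 at stage 7, and CTELG00000022216.1 from 279 and 233 to 1758 and 1724. The first had its largest step at the gastrula and its smallest at stage 7 (log2 steps of 2.27, 1.11, 0.81 and 0.19), and the other also stepped most at the gastrula but then again at stage 7 (1.13, 0.19, 0.45 and 0.99). CTELG00000024845.1 went from 59.8 and 109 to 2809 and 2899, and CTELG00000024846.2 from 63.4 and 52.4 to 1171 and 1306. CTELG00000016458.1 went from 63.4 and 68.0 to 2116 and 2039, with its largest step at stage 4tt, whereas CTELG00000016459.1 stepped most at stage 7. Genes numbered next to a member but outside the 111 were called higher from the 64-cell stage to stage 7 in 68 of 224 transcripts tested (30.4%), near the 28.2% of all transcripts. Gene numbers were not checked against positions in a genome.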

How the data were processed

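The authors trimmed the reads with trimmomatic, used kallisto (v0.46.2) for pseudo-alignment to gene models, and applied DESeq2 (v1.30.1) to bring read counts of the stages to a common scale. What they deposited is thus a signal, the scaled read count of each transcript model, with no fixed total per library. The genome build behind the models is not used here. Whole reads could not be recovered from the values, so no count-based test and no counting interval is given. Of 10 libraries, 2 belong to each of 5 stages, as the labels give them, and 0 columns belonged to no sample.

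Transcripts were selected as the report describes, on deposited values with no pseudocount. For comparisons across all transcripts, log2(value + 1) was fitted with limma (v3.58.1, R v4.3.3), with a mean-variance trend, 1 coefficient per stage and all 10 libraries, for the 35526 models whose value exceeded 2 in 2 or more libraries. P values are two-sided. The scripts were tested on simulated data. The rest was done with pandas (v2.3.3) and numpy (v2.4.6) under Python (v3.11.15), with plots by matplotlib (v3.10.9).

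The members, lists and named transcripts were chosen with earlier results of these data known. The named members were the 3 with the largest rise, the 3 highest at stage 7, the 2 with the largest share of their rise in each step, the 3 with the most even steps, the 2 on each side of each threshold, the 3 whose gene has the highest other models, and the 3 pairs of consecutive number. The replicate numbers were not taken as pairs, since the labels state no shared origin. Alternatives were other scalings, pseudocounts, filters and minima, a replicate block, fits of only the stages compared, and leaving out each library.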

Additional observations from a re-analysis of the deposited data

How the results depend on the processing

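Counts of members called were within 1.5 times of the reported value under 40 of 45 alternatives with all libraries kept. With only the stages compared, exceptions were 13 at the second step (3.83% of all transcripts) and 0 at the third and last (0.0%). The others were 5 at the third step with a pseudocount of 5 (0.585%) and 52 at the second with no minimum fold change. No share of all transcripts was counted for the 52. Leaving out 1 library gave 62 to 70 members called at the first step, 25 to 38 at the second, 0 to 5 at the third, 2 to 26 at the last and 110 to 111 over the whole rise. The share of all transcripts called also varied between these fits, each of which left a stage with 1 library. At the third and the last step this share was lowest in a fit with the fewest members called. Nothing particular to the 111 is therefore read from the counts with 1 library left out. With a replicate block, the members called were 70 (22.7% of all transcripts), 33 (10.9%), 4 (0.352%) and 24 (3.92%) at the 4 steps. Over the whole rise they were 111 (28.6%). The differences between replicates correlated between stages at -0.0077 to 0.22, over 0.1 in 2 of 10 pairs of stages.

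The other models kept counts within 1.5 times of 25 called higher, and 0 lower, under every alternative run. The number of transcripts meeting the rule was 193 (55 for the mirror rule) with libraries scaled to the same total and 171 with a minimum of 20, and it ran from 119 to 183 (197 to 327 for the mirror rule) with 1 library left out. The last step was the largest in 17 members after scaling by median ratios and in 11 with replicate 1 libraries only, and the third in 2 after scaling to the same total. Without the 100 most abundant models in the total, the members' shares were 0.0867%, 0.276%, 0.573%, 0.870% and 1.54% from the 64-cell stage to stage 7. Without CTELG00000008059.1, an alternative chosen after seeing the data, the share was 0.962% at stage 7. After scaling by median ratios the summed level was 39219 at the 64-cell stage, 79381 at the gastrula and 205175 at stage 5. The methods of the study give an approximate sequencing depth, but read numbers of each library were not used here. Small steps were therefore not weighed against counting error.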

Other observations

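The minimum at the 64-cell stage left out most transcripts that rose at every step. With no minimum, 353 transcripts did so, and 242 of these had a 64-cell mean below 50, including 28 listed at 0 in both 64-cell libraries. Their median level went from 9.23 normalized counts in 64-cell embryos to 43.2 at the gastrula, 128 in the 4tt libraries, 252 by stage 5 and 572 by stage 7. Among the 214 that were above 0 at the 64-cell stage, the median rise was 5.78 on the log2 scale, and the first step was the largest in 59.3%, the second in 28.0%, the third in 4.21% and the last in 8.41%.

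The highest of them at stage 7 was CTELG00000013864.1. Its 64-cell libraries held 9.99 and 4.89 normalized counts, followed by 23.8 and 46.2 at the gastrula, 741 and 1382 in the 4tt libraries, 2467 and 3634 at stage 5, and 12672 and 10300.4 at stage 7. Its largest step was that from the gastrula to stage 4tt, as it was for CTELG00000008059.1, the highest of those above the minimum. CTELG00000001960.1 followed, with 35.9 and 58.1 at the 64-cell stage, 1023 and 1118 in the 4tt libraries, and 10260 and 10171 at stage 7. Each would have stood among the 10 highest of the 111 at stage 7.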
